A study of Rattus norvegicus with 36 samples.

Results

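Gene expression was compared in the hearts of 24-week-old male Wistar Kyoto rats that had run on a treadmill as juveniles and of rats of the same age that never trained. The 8 early exercise rats trained between 5 and 9 weeks of age and then stayed untrained for the 15 weeks before the heart was taken. The 7 sedentary rats were not trained at any age. These 15 arrays, 1 heart each, were chosen by their labels from 36 arrays, and of 22523 probes the 10956 detected on at least 7 of the 36 arrays were described. The other arrays came from rats aged 9 weeks (7 sedentary and 7 early exercise), which served to place the 24-week difference, and 7 later exercise rats that trained from 20 to 24 weeks. All 5 groups were Control rats by the study's methods, that is, offspring of sham-operated mothers with litters of normal size. Brothers of a litter were placed in different treatment groups, but no litter is named in the labels, so litter could not enter a fit. RNA came from powdered whole heart, so atria, ventricles, vessels, connective tissue and blood were measured together, and fewer cells of a type cannot be told apart from less RNA per cell.

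Endurance training loads the heart with repeated bouts of high output, and cardiac muscle adapts by growing, by shifting its supply of fuel and by remodelling its cytoskeleton, matrix and vessels. In the growing animal the myocytes are still maturing, and growth signals through insulin-like growth factor, Akt and mTOR are among the pathways usually examined. A comparison made long after the last bout addresses whether early training left a mark on the adult heart.

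The arrays carried the labelled tissue. Of 14 cardiomyocyte markers 12 were measured, and Myh6, Myl2, Tnnt2, Tnni3, Actc1, Ckm and Mb were detected on all 15 arrays. Of the genes listed as markers of skeletal muscle besides Ckm, Myh2, Myh4, Actn3 and Pvalb were detected on 0 of the 15 arrays, Tnnt3 on 7, Tnni2 on 13 and Acta1 on 15. Correlations between the 15 arrays ran from 0.980 to 0.996. Early exercise replicate 8 stood somewhat apart, with a mean correlation of 0.983 with the other arrays against 0.989 to 0.992 for the rest. By the labels the arrays sat on 3 chips, with both groups on each. Before normalization the mean raw signal was lower in early exercise arrays, at 723 against 907 in sedentary arrays (two-sided exact permutation p = 0.0267). The permutation took no account of chip. By the median raw signal, 137 against 158, the same permutation test gave p = 0.158. The ratio of the mean signals was 0.658, 1.05 and 0.713 on chips 1, 2 and 3, and the part of brightness in the results below was not tested beyond its use as a covariate.

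No probe passed an adjusted p of 0.05 between early exercise and sedentary hearts at 24 weeks (limma, Benjamini-Hochberg over 10956 probes, smallest adjusted p 0.0883). The differences were small and spread over many probes: 1139 had an unadjusted p below 0.05 (10.4% of those tested), 484 higher (4.42%) and 655 lower (5.98%) in early exercise hearts. Of all probes 48.8% lay above 0. The p-values measure the spread between these rats. Between the 5th and the 95th percentile the log2 fold changes ran from -0.23 to 0.22, and 34 probes lay more than 0.5 from 0. At the thresholds the study used, which combine an unadjusted p of at most 0.05 with a level below 0.75 times or more than 25% above that of sedentary hearts, there were 198 probes (1.81%), of which 146 were higher (1.33%) and 52 lower (0.475%), a split that became 18 and 229 when arrays were instead scaled to 1 median. The study itself listed 43 probes at these thresholds, with 7 rats per group and another fit. Of these 198, 181 had the same sign on each of the 3 chips. So had 1025 of the 1139 probes at an unadjusted p below 0.05, and 4146 of all 10956 probes (37.8%). The 198 were picked on these same arrays, so their agreement across chips is a description and no test. When chip entered the model as a block, 28 probes passed an adjusted p of 0.05 (0.256%), 12 higher (0.11%) and 16 lower (0.146%). All 28 had the same sign on each chip, but they too were picked on these arrays. The count of 28 depended on single arrays. Without early exercise replicate 4 or 8 or sedentary replicate 4, 5, 6 or 7 it was 1 (the nucleolar gene Gnl2), without early exercise replicate 6 it was 2, and without sedentary replicate 2 it was 127, while all 28 probes kept their direction each time. With raw brightness beside chip in the model, 1 of the 28 passed, a lower one. With chip in the model and arrays scaled to 1 median, 13 probes passed, 0 of them higher, and 5 of these were among the 28. The 28 kept their direction in both fits.

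Genes that stood lower after early exercise were led by enzymes, scaffolds and channel subunits. Naa30 (probe ILMN_1349174), the catalytic subunit of the N-terminal acetyltransferase NatC, had log2 signals of 10.20 to 10.82 in sedentary hearts (median 10.41) and 9.87 to 10.20 in early exercise hearts (median 10.01). No early exercise heart reached the sedentary median and 7 of 8 lay below the lowest sedentary heart. The fold was 0.742 (log2 -0.43, standard error 0.086, adjusted p = 0.0883, and 0.0355 with chip as a block in limma). Nnt (ILMN_1361484), the transhydrogenase that supplies mitochondria with NADPH, ranged from 14.39 to 14.96 in sedentary hearts (median 14.56) and from 13.89 to 14.43 after early exercise (median 14.16). Here too 7 of 8 early exercise hearts lay below all sedentary hearts, at a fold of 0.727 (log2 -0.46, standard error 0.10). The fall in Nnt passed with chip as a block (adjusted p = 0.0377), at -0.67, -0.09 and -0.61 on the log2 scale within chips 1, 2 and 3.

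Akap9 (ILMN_1649991), a scaffold that ties protein kinase A to its targets, among them the potassium channel Kcnq1, separated the groups. Its log2 signal was 9.79 to 10.35 in sedentary hearts (median 10.02) against 9.33 to 9.77 after early exercise (median 9.44), a fold of 0.704 (log2 -0.51, standard error 0.12, adjusted p = 0.0377 with chip as a block). Kcnq1 itself (ILMN_1370502), which carries the slow repolarizing current, ran from 9.32 to 9.84 in sedentary and from 8.90 to 9.30 in early exercise hearts. Its groups did not overlap either, but at a fold of 0.748 it did not pass with or without the block. Of all probes tested, 12 had every early exercise heart below every sedentary heart (0.11%) and 4 the reverse (0.0365%). Coq8a, which is needed to make coenzyme Q, and Vps13d, a lipid transfer protein, were also among the 12, at folds of 0.816 and 0.728, and Rpl13a and Anxa2 were among the 4.

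The endosomal protein gene Zfyve16 (ILMN_1369149) was 8.09 to 8.74 in sedentary hearts (median 8.42) against 7.70 to 8.24 after early exercise (median 7.94), a fold of 0.711. Tlk1, a kinase that acts in chromatin assembly, stood at a fold of 0.819, with medians of 10.62 and 10.37 and 7 of 8 early exercise hearts below all sedentary hearts, and Cpd, a carboxypeptidase of the Golgi, at 0.795. Ube4a, which lengthens ubiquitin chains, had a fold of 0.741, Jade1, a scaffold of a histone acetyltransferase, 0.789, and Abcc9, the regulatory subunit of the ATP-sensitive potassium channel, 0.763. These 6 genes fell by the fit with chip as a block (adjusted p from 0.0355 for Zfyve16, Cpd and Abcc9 to 0.0456 for Ube4a). The other called genes had far larger adjusted p without the block. Gnl2, a GTPase of ribosome assembly, went from an adjusted p of 0.246 to 0.00211 (fold 0.741, log2 -0.47, -0.46 and -0.53 on chips 1, 2 and 3). Mpdz, Ywhag and Ythdf3, a junction scaffold, a 14-3-3 protein and a reader of methylated RNA, had adjusted p of 0.344, 0.393 and 0.429 without the block and 0.0355, 0.0377 and 0.0355 with it. The probe ILMN_1650171, which carries the name of titin in the study's table only, had the lowest fold of the 28 probes, 0.655, with 13.77 to 14.86 in sedentary and 13.34 to 13.79 in early exercise hearts.

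Among genes that stood higher, Rhoa and Crem had the largest folds of those called. Rhoa (ILMN_1349268), the small GTPase that drives actin stress fibres, was 11.36 to 12.03 in sedentary hearts (median 11.60) against 11.69 to 12.61 after early exercise (median 12.26). All 8 early exercise hearts lay above the sedentary median and 6 above every sedentary heart, at a fold of 1.49 (log2 0.57, standard error 0.13, adjusted p = 0.0962, and 0.0401 with chip as a block in limma). Crem (ILMN_1376694), a transcription factor that answers cAMP and whose short forms repress cAMP-responsive genes, was 8.91 to 9.56 in sedentary hearts (median 9.23) against 9.35 to 10.38 after early exercise (median 9.77). It too was above the sedentary median in all 8 hearts and above every sedentary heart in 6, with a fold of 1.43 (log2 0.51, standard error 0.12, adjusted p = 0.0355 with the block). Early exercise replicate 4 was the highest, at 10.38.

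Fcer1g (ILMN_1351139), the signalling chain of Fc receptors in myeloid cells, was 10.93 to 11.42 in sedentary hearts (median 11.15) against 11.18 to 11.72 after early exercise (median 11.63), a fold of 1.34. Of the 8 early exercise hearts 7 lay above all sedentary hearts and replicate 7 did not. Mien1, a membrane protein linked to cell migration, had a fold of 1.38, Tceal9 1.36, Nipsnap3b 1.32 and Marchf10, a ubiquitin ligase, 1.32. Cdc26, a subunit of the anaphase-promoting complex, stood at 1.24 and Wdr83os, which helps to insert membrane proteins, at 1.18, and Pyurf was higher by 0.32 on the log2 scale. These 8 genes rose by the fit with chip as a block (adjusted p 0.0355 to 0.0377), Pyurf and Wdr83os from an adjusted p of 0.256 and 0.324 without it. No higher probe, Rhoa and Crem included, passed when brightness was added to chip or when arrays were scaled to 1 median. Outside the calls, Emc4, a subunit that inserts proteins into the endoplasmic reticulum membrane, had a fold of 1.28 with 7 of 8 early exercise hearts above all sedentary hearts, and Aprt, which salvages adenine, 1.27 with 7 of 8.

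**Figure D1:**
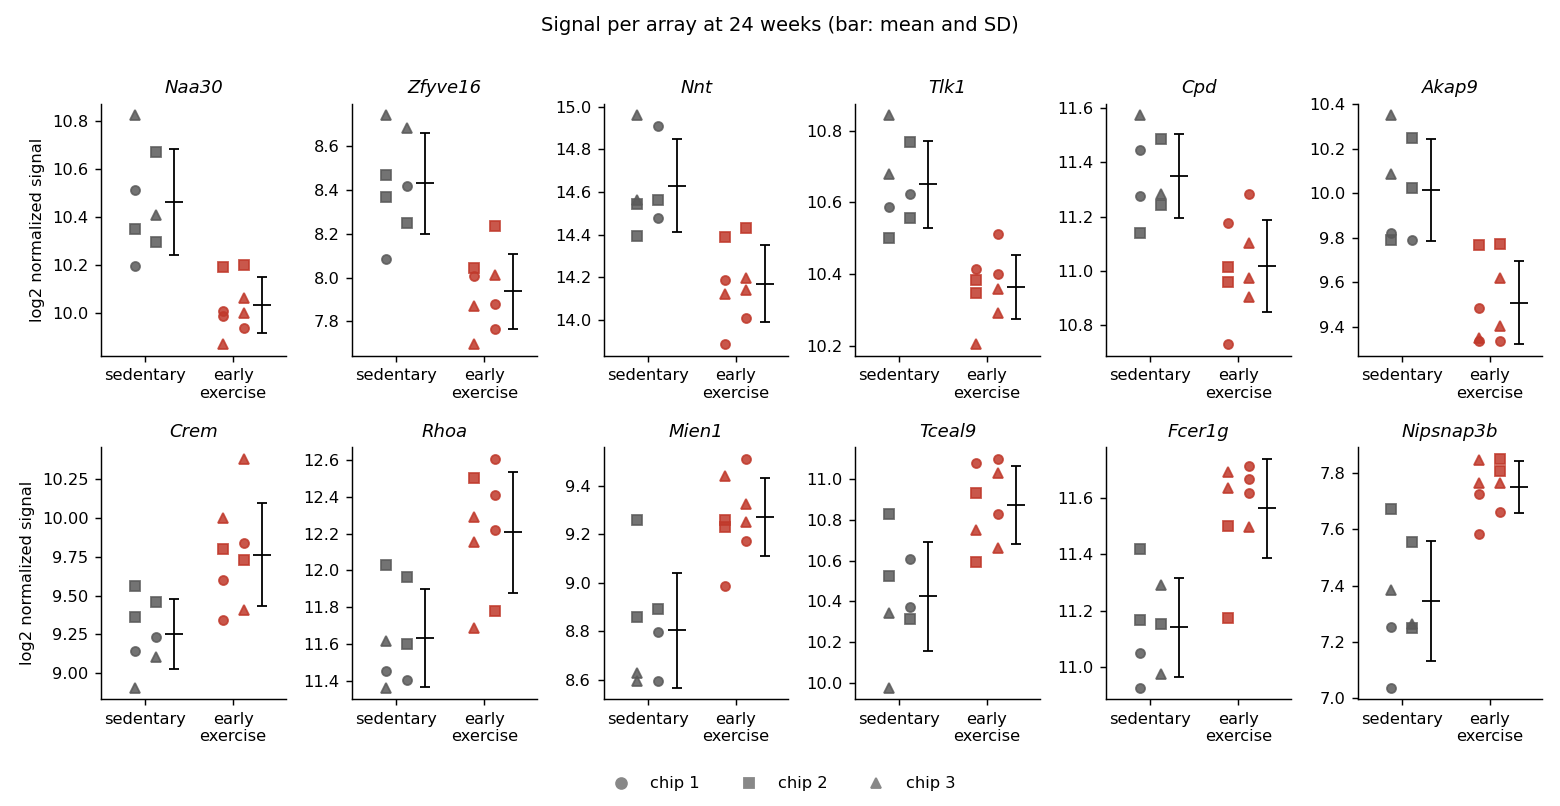
Log2 normalized signal of 12 genes in each of the 7 sedentary and 8 early exercise hearts at 24 weeks, 1 point per array with its shape giving the chip, and the group mean with its SD beside the points. The upper row holds genes that were lower and the lower row genes that were higher after early exercise. The groups meet or overlap in every panel except that of Akap9.

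Promoters are shown for 1 called gene in each direction, Crem as a gene of cAMP signalling and Naa30 because it had the smallest p without the block. Only 1 annotated start per gene was used. Any other promoter of a gene was not searched, so a missing motif says nothing on how Crem answers cAMP. The sequences are the 150 bases before the annotated start in RefSeq (build GRCr8), 5′ to 3′ on the gene's strand, with the GC box GGGCGG or its reverse complement in capitals. The Crem stretch is chr17:58933916-58934065 on the plus strand and the Naa30 stretch chr15:24935294-24935443 on the plus strand.
Crem: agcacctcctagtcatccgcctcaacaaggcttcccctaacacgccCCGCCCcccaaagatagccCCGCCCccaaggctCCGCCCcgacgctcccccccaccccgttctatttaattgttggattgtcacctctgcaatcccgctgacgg
Naa30: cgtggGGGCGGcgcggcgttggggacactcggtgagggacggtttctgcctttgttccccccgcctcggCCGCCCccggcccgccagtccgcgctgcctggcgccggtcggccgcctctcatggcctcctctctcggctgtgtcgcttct
Over the 250 bases before the start, the Naa30 promoter had 79.2% G and C with 39 CpG dinucleotides and that of Crem 58.8% with 17. The full cAMP response element TGACGTCA, searched on both strands, was in neither, and in 0 of the 16 called genes that had an entry. It was found in 2.84% of the 6578 measured genes with an entry. Of 95 genes past the study's thresholds upward 74 had an entry, with a median G and C content of 56.0% and a TATA box (TATAAA) in 12.2%. Of 34 downward, 26 had an entry, with 62.8% G and C and a TATA box in 3.85%. All measured genes lay between, at 59.6% and 7.51%. The GC box was in 56.8%, 65.4% and 57.3% of the 3 sets. Each motif match is a description of letters only.

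The 24-week differences were set beside those at the end of training, in other rats killed at 9 weeks. At 9 weeks 868 probes had an unadjusted p below 0.05 (7.92%) and 0 passed after adjustment. Of the 28 called probes 27 had the same sign at 9 weeks, 13 of these with an unadjusted p below 0.05 there, and all 28 were larger at 24 weeks. Over all probes 61.1% had the same sign at both ages. The median log2 fold change of the 12 higher probes was 0.41 at 24 and 0.20 at 9 weeks, and that of the 16 lower probes -0.43 and -0.19. These probes were called at 24 weeks, so their smaller values at 9 weeks are a description and no test. Crem stood at 1.28 and Rhoa at 1.24 times sedentary at 9 weeks, Nipsnap3b at 1.26, Naa30 at 0.825 and Cpd at 0.827. Tlk1 (0.971), Gnl2 (0.981) and Mpdz (1.01) were close to sedentary at 9 weeks.

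The difference between the 24-week and the 9-week effect was tested in the same model, and the 2 effects share no rats. No probe passed an adjusted p of 0.05, and 334 had an unadjusted p below 0.05 (3.05%). Among the named genes the smallest unadjusted p of this difference were those of the following 4, each with an adjusted p of 0.999 in limma. Pfkfb1, an enzyme that sets the level of a glycolytic activator, stood at 0.785 times sedentary at 24 weeks and 1.11 at 9 weeks, and Dbp, an output gene of the clock, at 0.823 and 1.11. Tlk1 stood at 0.819 and 0.971, and the tetraspanin Cd63 at 1.54 and 0.862.

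**Figure D2:**
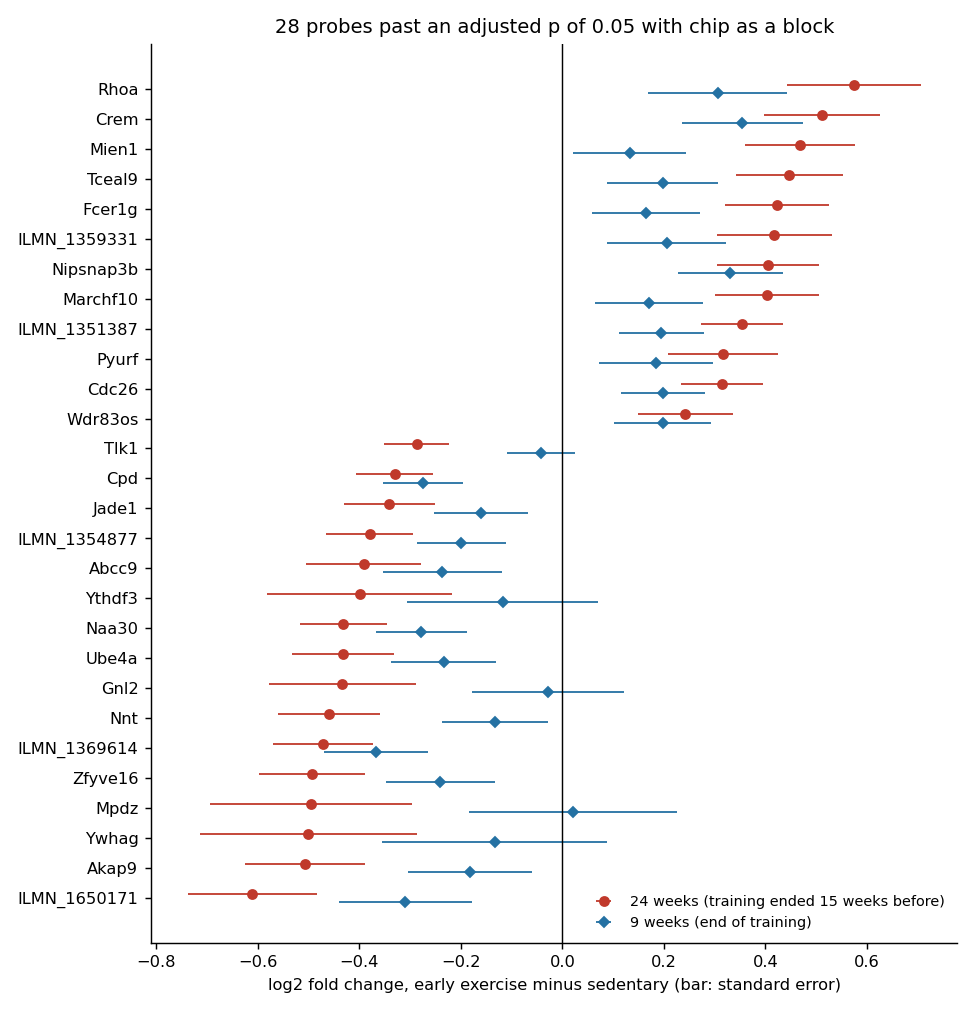
Log2 fold change of early exercise over sedentary hearts, with its standard error, at 24 weeks (circles) and at 9 weeks (diamonds) for the 28 probes past an adjusted p of 0.05 at 24 weeks with chip as a block. All 28 were farther from 0 at 24 weeks, and Mpdz alone changed sign.

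Later exercise hearts were compared with the same 7 sedentary hearts, so the 2 effects share their controls and are given side by side only. In that comparison 1356 probes passed an adjusted p of 0.05 (12.4%). Naa30 stood at 0.742 after early and 0.708 after later exercise, Nnt at 0.727 and 0.718, Akap9 at 0.704 and 0.583, and the titin-named probe at 0.655 and 0.575. Rhoa was 1.49 and 1.43, Mien1 1.38 and 1.47, and Crem 1.43 and 1.27. Gnl2 (0.741 and 0.989) and Anxa2 (1.22 and 1.03) were near the sedentary level after later exercise. Spp1, Timp1 and Ccl2 lay on opposite sides of it, at 2.12 and 0.451, 1.29 and 0.859, and 1.62 and 0.923. For Timp1 and Ccl2 the later exercise value did not pass (adjusted p = 0.284 and 0.819 in limma). It was -0.22 and -0.12 on the log2 scale, with standard errors of 0.13 and 0.26.

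The genes that the study measured by PCR had been chosen from these same arrays, so their values here are no independent evidence. By that PCR, in Control, Restricted and Reduced litter rats, the study found no lasting effect of early exercise on any of them, Rhoa included. It reports Sod3 and Ckm as higher after later exercise, and a tendency of training to raise Spp1 and Cox4i1. On the arrays the largest fold among the PCR genes was that of Spp1 (ILMN_1352642), osteopontin, a secreted matrix protein of macrophages and injured muscle. Its log2 signal was 9.08 to 12.31 in sedentary hearts (median 11.09) against 11.23 to 12.58 after early exercise (median 12.17). The lowest value was sedentary replicate 2 and the highest sedentary heart reached into the early exercise range, so that 3 of 8 early exercise hearts lay above it. The fold was 2.12 (log2 1.08, standard error 0.44, adjusted p = 0.357 in limma), or 1.79, 0.44 and 0.75 on the log2 scale within chips 1, 2 and 3. Sod3, the extracellular superoxide dismutase, was 10.02 to 10.63 in sedentary hearts (median 10.28) against 10.41 to 11.05 after early exercise (median 10.67), all above the sedentary median, at a fold of 1.33. The muscle creatine kinase Ckm had a fold of 1.17 and Cox4i1, a subunit of cytochrome oxidase, 1.15, with overlapping groups. Actb, cytoplasmic actin, had 3 probes that disagreed, with folds of 1.30, 1.31 and 1.00.

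In cAMP signalling the called genes went opposite ways, Crem higher and Akap9 lower. Of 36 measured genes 2 were higher and 4 lower at an unadjusted p below 0.05, with a median log2 fold change of 0.03 against -0.0040 over all probes. In this and the lists that follow, higher and lower refer to that unadjusted p, and none passed after adjustment apart from the genes called with the chip block. The shares to set beside each list are those of all probes, 4.42% higher and 5.98% lower. Gnai2, an inhibitory G protein subunit, was the second higher gene (1.21), and the phosphodiesterase Pde4d (0.825, detected on 5 of 8 early exercise arrays) and the anchoring proteins Akap8 and Akap6 (log2 -0.20 and -0.28) were lower with Akap9. The catalytic and regulatory subunits of protein kinase A lay near 0, with Prkaca at -0.10 and Prkar1a at 0.00. Creb1 stood at 0.08.

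Channels and calcium handling genes had a median below 0. Of 33 measured genes 9 were lower and 0 higher at an unadjusted p below 0.05 (median -0.11), against 5.98% and 4.42% of all probes. Beside Kcnq1 and Abcc9 these included Cacna2d1, an accessory subunit of the L-type calcium channel (0.724, 10.57 to 11.44 in sedentary and 10.22 to 10.69 in early exercise hearts), and Kcnd3, which carries the transient outward current (0.723, 6.36 to 7.32 and 6.11 to 6.75). For both genes no early exercise heart reached the sedentary median. The calcium release channel Ryr2, taken by the brightest of its kept probes, had a log2 fold change of -0.42 with p above 0.05 without the chip block. On the same scale the pump Atp2a2 stood at 0.07 and the sodium-calcium exchanger Slc8a1 at 0.18. The list median was -0.05, -0.03 and -0.15 on chips 1, 2 and 3, and 0.00 with the length score described below as a covariate.

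Genes for the oxidation of fat and sugar had list medians below 0, and those of the respiratory chain a median above 0. Of 38 fatty acid oxidation genes 31 lay below 0 (median -0.08), with 8 lower and 0 higher at an unadjusted p below 0.05. Cpt1a, which loads fatty acids onto carnitine, was 9.56 to 10.29 in sedentary hearts (median 9.81) against 9.38 to 9.67 after early exercise (median 9.59), a fold of 0.806. Hadh, the enzyme of the third step of the cycle, had 7 of 8 early exercise hearts below all sedentary hearts at a fold of 0.881. The coactivators Ppargc1a (0.726) and Ppargc1b (0.836) were lower as well, detected on 7 and 6 of 8 early exercise arrays. Within chips 1, 2 and 3 Ppargc1a stood at -0.98, -0.13 and -0.10 on the log2 scale. Early exercise replicate 8 was the lowest of its group for Ppargc1a, at 5.55 where the next heart had 6.43.

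In the citric acid cycle and its supply 7 of 30 genes were lower and 0 higher (median -0.09). Nnt was followed by Pdp2, a phosphatase that activates pyruvate dehydrogenase (0.701, 9.61 to 11.03 in sedentary and 9.45 to 9.94 in early exercise hearts), Idh2 (0.791) and Ogdh (log2 -0.23). In glycolysis and glucose supply 7 of 29 were lower and 0 higher (median -0.07), among them the glycogen phosphorylase Pygb (0.792), the glucose transporter Slc2a4 (0.824), the aldolase Aldoa (0.853) and Pfkfb1, which was detected on 5 of 8 early exercise arrays. Of 44 oxidative phosphorylation genes 31 lay above 0 (median 0.05), with Ndufb6 higher (1.16) and Uqcrc1 and Ndufa10 lower (0.865 and 0.875). That share, 6.82%, was below the 10.4% of all probes. Scaled to 1 median per array, the medians of these 4 lists were -0.13, -0.12, -0.15 and 0.16. With the length score described below they were -0.08, -0.02, -0.0019 and 0.02.

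Among contractile and growth genes the shares at an unadjusted p below 0.05 were 15.4% for the sarcomere and 12.9% for growth signalling, against 10.4% of all probes, and 2 of 19 genes passed it in the fetal programme. Of 26 sarcomere genes 0 were higher and 4 lower, namely Ldb3 (0.783), Mybpc3 (0.831), Flnc (0.797) and Actn2 (0.856), with a median of 0.01. Mybpc3, the myosin-binding protein of the thick filament, was 13.88 to 14.40 in sedentary and 13.76 to 13.94 in early exercise hearts, with 7 of 8 below all sedentary hearts. The myosin chains Myh6 and Myh7 had log2 fold changes of 0.09 and 0.08. Of 19 genes of the fetal programme of hypertrophy 0 were higher and 2 lower, Agt, detected in 2 of 8 early exercise hearts (0.835), and the coactivator Myocd (0.747). The natriuretic peptide genes Nppa and Nppb stood at 0.06 and 0.22 on the log2 scale with p above 0.05. In growth signalling 1 of 31 genes was higher and 3 lower. Mtor (ILMN_1361395), the kinase at the centre of the pathway, was 9.08 to 9.89 in sedentary hearts (median 9.43) against 8.90 to 9.29 after early exercise (median 9.03), all 8 below the sedentary median and 5 below every sedentary heart, at a fold of 0.770 (adjusted p = 0.127). The translation factor Eif4e (0.888) and the mTOR inhibitor Sesn1 (0.852) were lower and Eif4ebp1, which restrains Eif4e, higher (1.15). Akt1, Akt2 and Igf1r had log2 fold changes of 0.12, 0.02 and -0.20 with p above 0.05.

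Genes with very long transcripts lay below 0 in all 18 measured, 10 of them at an unadjusted p below 0.05 and 0 higher. Their median log2 fold change was -0.30, and it was -0.23, -0.21 and -0.43 on chips 1, 2 and 3. Beside Akap9 these included Birc6, an inhibitor of apoptosis (0.708, with medians of 8.37 in sedentary and 7.89 in early exercise hearts), Vps13d (0.728) and Mycbp2 (0.789). Averaged over the list, the sedentary arrays ran from 8.69 to 9.11 and the early exercise arrays from 8.46 to 8.69. The ubiquitin ligase and chain factor list, which also holds Birc6, Mycbp2 and Herc2, had 9 of 28 lower and 0 higher (median -0.13), with Cul3 and Cul1 at -0.24 and -0.19 on the log2 scale. With the length score described below as a covariate the median of this list was 0.0040.

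The same ordering ran through the whole array by gene span, the distance from the first to the last base of the gene in RefSeq, which was known for 8029 probes. Genes under 5 kb had a median log2 fold change of 0.05 with 68.2% above 0, and genes of 100 kb or more -0.05 with 33.2% above 0. The share higher at an unadjusted p below 0.05 went from 9.61% to 0.892% and the share lower from 1.81% to 11.6%. On each chip, and at 9 weeks (medians 0.05 and -0.03), the shortest class lay above 0 and the longest below, whereas with 1 median per array both lay below 0 (-0.02 and -0.14). Cytosolic ribosomal protein genes, which are short, had 46 of 56 above 0 (median 0.10), with 7 higher and 0 lower at an unadjusted p below 0.05. The largest were Rpl31 (1.26) and Rpl13a (log2 0.32), which was 11.76 to 12.17 in sedentary and 12.17 to 12.59 in early exercise hearts with no overlap. A length score, the mean of the very long transcripts minus that of the ribosomal genes on an array, was -4.23 to -3.64 in sedentary and -4.53 to -4.17 in early exercise hearts. The groups thus overlapped only from -4.23 to -4.17, and the called gene Akap9 is itself part of the score. A fit with the score therefore cannot tell it apart from the group, here or in the list medians given with it. With this score beside chip in the model, 1 probe passed an adjusted p of 0.05 and it was none of the 28, although all 28 kept their direction. With the score as the only added term, S100a6, Eif4ebp1, Flnc, Idh2, Naa38 and Per1 changed sign. RNA integrity values were not used here, and the part of the score in the single genes was not tested further.

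**Figure D3:**
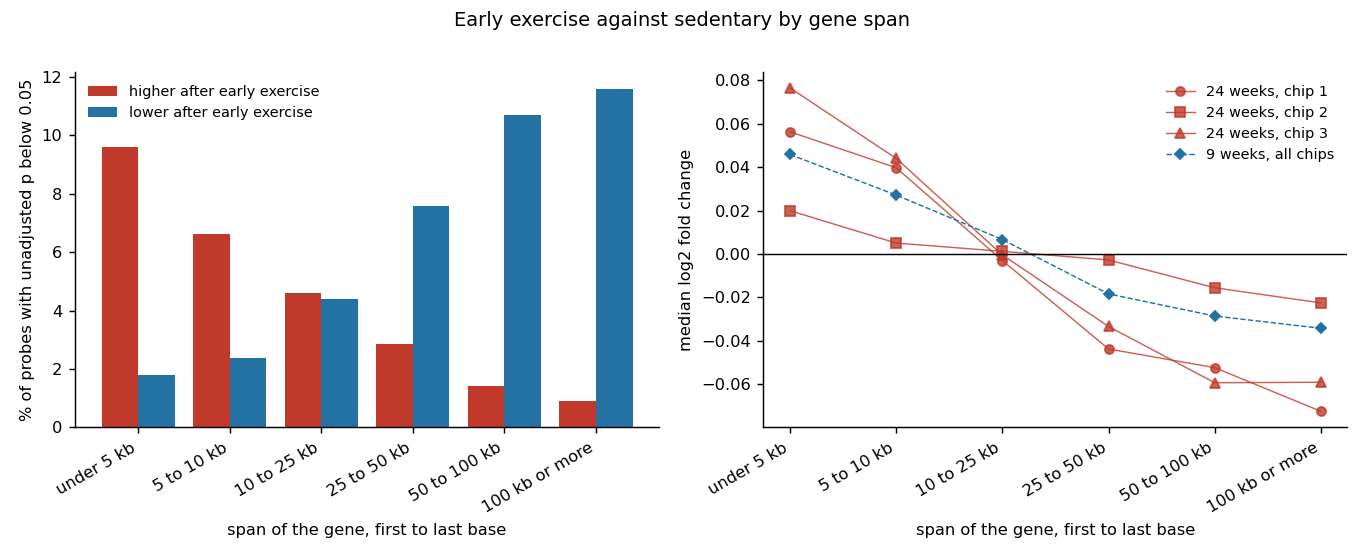
Left, the share of probes with an unadjusted p below 0.05 that were higher or lower after early exercise at 24 weeks, in 6 classes of gene span. Right, the median log2 fold change of each class on chips 1 to 3 at 24 weeks and on all chips at 9 weeks. The shares cross at 10 to 25 kb, where 4.61% were higher and 4.38% lower.

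Markers of macrophages stood higher, with 16 of 19 above 0, 8 higher and 0 lower at an unadjusted p below 0.05, and a median log2 fold change of 0.26. Beside Fcer1g these were Ms4a7 (1.24, 7.34 to 7.82 in sedentary and 7.73 to 8.29 in early exercise hearts), the chemokine Ccl2 (1.62), the endotoxin receptor Cd14 (1.22), the complement genes C1qb and C1qc, Ctss and Aif1. The list median was 0.26, -0.03 and 0.23 on chips 1, 2 and 3, and it was 0.07 with the length score as a covariate and 0.12 when arrays were scaled to 1 median. Averaged over the list, sedentary arrays ran from 8.29 to 8.49 and early exercise arrays from 8.29 to 8.76, so the groups overlapped. The resident macrophage markers Cd163 (0.11), Mrc1 (-0.15) and Adgre1 (-0.13) had p above 0.05. MHC class II genes had 3 of 6 higher and 0 lower (median 0.23, and 0.13 with the length score or 0.12 at 1 median per array), led by RT1-DMa and RT1-Db1 (both 1.26) and Cd74 (1.20), and Pf4, a chemokine of platelets that some macrophages also make, stood at 1.31.

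Few markers of other cell types had small p. Endothelial (9 genes), fibroblast (11), atrial (7), T cell (8), B cell (3), mast cell (5), adipocyte (5), erythroid (7), neutrophil (3), Schwann cell and neuron (6) and mesothelial (4) markers had 0 members at an unadjusted p below 0.05 in either direction. The 7 erythroid markers all lay above 0 (median 0.15), with list means of 9.62 to 10.59 in sedentary and 9.99 to 10.68 in early exercise hearts. Of 12 cardiomyocyte and 4 skeletal muscle markers Ckm alone, which is in both lists, was higher and 0 were lower (medians 0.08 and 0.16). Of 7 smooth muscle and pericyte markers Abcc9 alone was lower, and of 3 platelet markers Pf4 alone was higher. In the neutrophil list S100a8 and Lcn2 were detected on 15 of 15 arrays and Camp on 4, and S100a9, Mpo, Elane, Cxcr2, Ngp and Csf3r on 0. In the class II list the activator Ciita was detected on 0 arrays and the other 6 genes on all 15.

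S100 proteins and annexins, calcium-binding proteins of many non-muscle cells, had 14 of 16 above 0, 5 higher and 1 lower (median 0.12, and 0.02 with the length score or 0.03 when arrays were scaled to 1 median). Anxa2 (ILMN_1364260) was 10.41 to 10.69 in sedentary and 10.70 to 11.07 in early exercise hearts, with no overlap, at a fold of 1.22 (adjusted p = 0.158). S100a4 (1.33), S100a11 (1.26), S100a6 (1.31) and Anxa6 (1.19) were higher and Anxa11 lower (0.859). Of 42 matrix genes 4 were higher and 0 lower (median 0.04), a share of 9.52% against 10.4% of all probes. The 4 were Spp1, the collagen-binding proteoglycan Fmod (1.74, 5.95 to 7.37 in sedentary and 6.61 to 8.34 in early exercise hearts), the protease inhibitor Timp1 (1.29) and Mfap5 (1.24). The fibrillar collagens Col1a1 (-0.01) and Col3a1 (0.25) had p above 0.05. Of 45 antioxidant, heme and iron genes 5 were higher, Sod3, Bola3 (1.40), the ferritin light chain Ftl1 (1.37), Gstp1 (1.24) and Gstm1, and 1 lower, Txnrd2, in all 13.3%. Ftl1 stood at 0.69, -0.05 and 0.77 on the log2 scale within chips 1, 2 and 3.

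**Figure D4:**
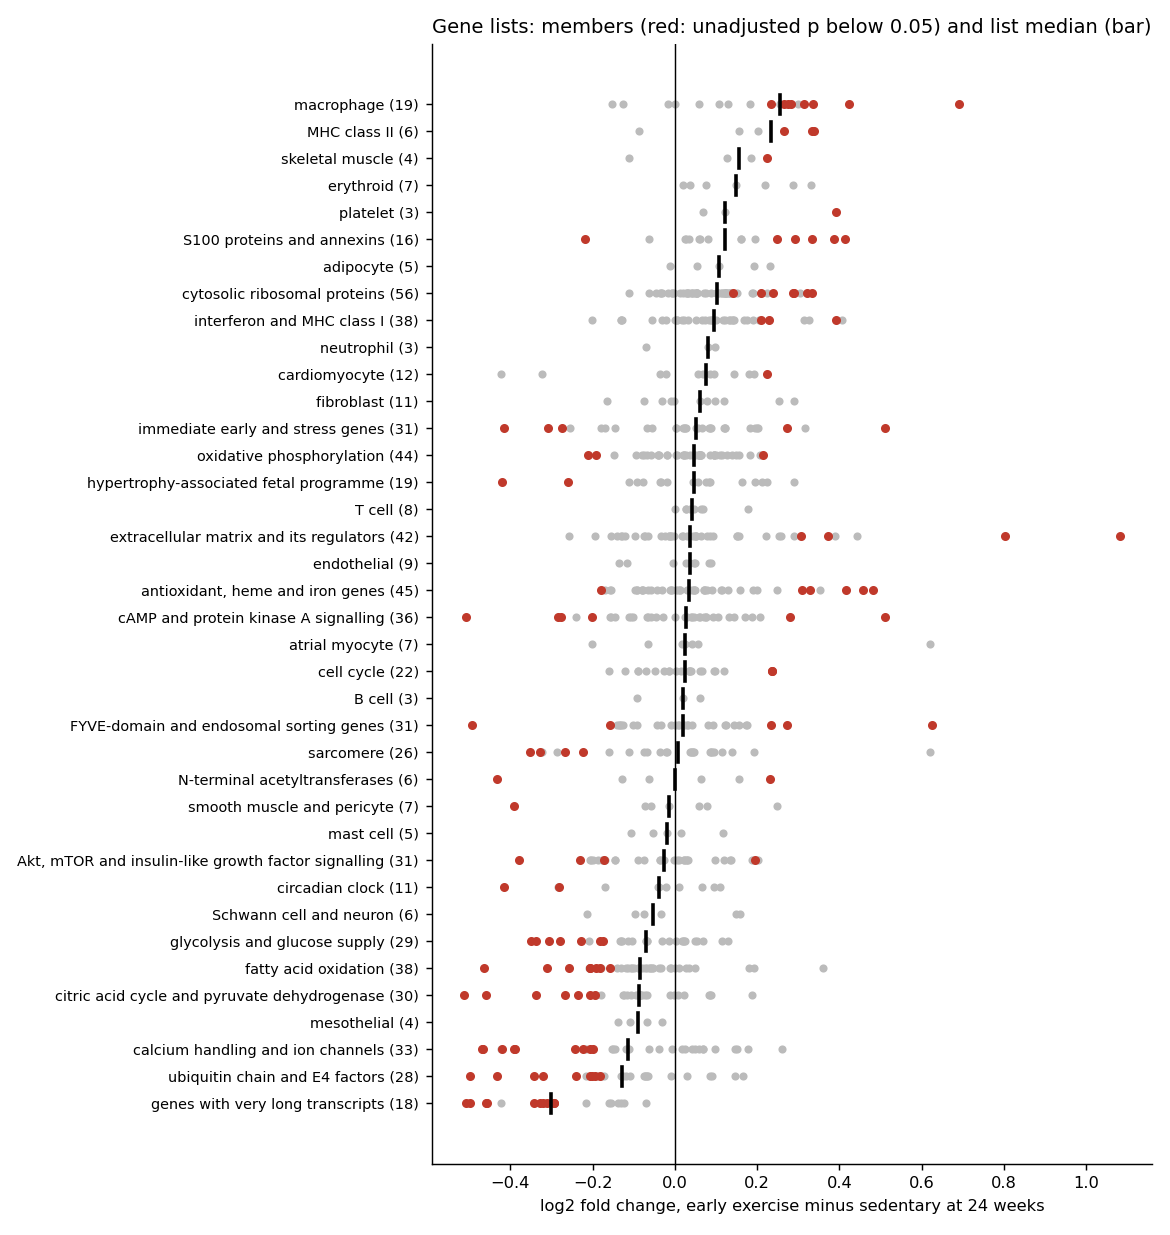
Log2 fold change of early exercise over sedentary hearts at 24 weeks for each measured member of the gene lists plotted (number measured in parentheses), with members at an unadjusted p below 0.05 in red and the list median as a bar. Macrophage markers had the highest median, 0.26, and genes with very long transcripts the lowest, -0.30.

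Interferon and MHC class I genes had 3 of 38 higher and 0 lower (median 0.10), with medians of 0.25, 0.03 and 0.00 on the 3 chips. That share, 7.89%, was below the 10.4% of all probes. Clock genes had 0 of 11 higher and 2 lower, Per1 (log2 -0.42) and Dbp, and the time of day at which hearts were taken was not used here. Immediate early and stress genes had 2 of 31 higher, Crem and Cdkn1a, and 3 lower, Klf9 (0.808), Txnip (0.827) and Per1. In the cell cycle list Cdc20 (1.18) and Hmgb2 (1.18) were the 2 of 22 that were higher, a share of 9.09% against 10.4% of all probes. Of 6 N-terminal acetyltransferase genes Naa38 was higher (1.17) and Naa30 lower, and of 31 genes with FYVE domains or a role in endosomal sorting Cd63, Snx1 and Lamp2 were higher and Zfyve16 and Rab11a lower. Scaled to 1 median per array, the medians of the matrix, cAMP and immediate early lists (-0.08 each), of the antioxidant and cell cycle lists (-0.03 each), of the fetal programme (-0.02) and of the interferon list (-0.0074) fell on the other side of 0, where that of all probes moved to -0.08. So did those of the endosomal (-0.08) and acetyltransferase (-0.15) lists. Among cell type markers the endothelial (-0.11), fibroblast (-0.01), B cell (-0.12) and neutrophil (-0.06) medians did the same.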

How the data were processed

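Total RNA from whole heart was amplified and labelled, and the amplified RNA was hybridised to Illumina rat expression arrays, 1 array per rat. As deposited, the raw signal intensity of each probe had no background correction. The detection score beside it, headed as a p value in the deposited table, grows with brightness and so stands for 1 minus the detection p, and a probe at 0.95 or more counted as detected. The log2 values deposited by the authors were used as given. They differ by at most 0.0417 from normexp background correction, an offset of 16 and quantile normalization computed here from the intensity values, and the submitters' processing notes name R 3.2.2 and limma 3.24.15. The study's methods instead describe variance stabilization with lumi and analysis of variance in Partek. Each of the 15 columns had a median log2 value of 5.71. Chip was taken from the labels (3 of 12 arrays), although the methods describe beadchips of 6. The methods' tables give 7 rats per group, and all 8 early exercise arrays were used.

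Probes detected on at least 7 of 36 arrays were kept (10956, of which 8038 carry 1 gene symbol from the platform annotation, for 7904 genes). Of the symbols on the array 13752 were matched to RefSeq names. One limma (3.58.1, R 4.3.3) model of 5 groups covered all 36 arrays. Variances were moderated by empirical Bayes, and p-values adjusted by Benjamini-Hochberg over all probes kept. Probes of a gene were kept apart, and in 39 gene lists a gene was taken by its brightest probe. The result of 1 list is not reported here. The number of arrays limits the precision. The fit was tested on simulated data. The members, lists, tests and naming rules were chosen with earlier results of these data known. Named were the 12 probes each way with a symbol and the smallest p, those called with chip as a block, the genes of the study's PCR, probes of the study's own list, and up to 4 members per list with an unadjusted p below 0.05. Other list members are quoted to describe a list, and some genes the rule covers were left out. Alternatives tried were the normalization from intensity, no background correction, scaling to a common median, no detection filter or a stricter one, only the 15 arrays, no moderation, chip, replicate number, brightness or length score as terms, and each array left out. Protein length could not be used, and gene span took its place after the data were seen.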

Additional observations from a re-analysis of the deposited data

Results flagged for a closer look

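Of 258 groups of values of named probes, 12 held an array whose gap to its nearest neighbour was large for the range of its group (Dixon's ratio). Chance flags about 1 in 20 groups. In early exercise hearts, replicate 8 was high for RT1-M3-1 (ratio 0.564, at 8.21) and low for Anxa11 (0.700, at 12.51), Pdp2 (0.547, at 9.45) and Ppargc1a (0.574, at 5.55). Replicate 2 was low for the ribosomal genes Rpl41 (0.652, at 14.46) and Rps29 (0.545, at 13.24). Replicate 7 was low for Fcer1g (0.599), replicate 5 for G0s2 (0.592, at 11.84), replicate 4 for Cacna2d1 (0.602) and replicate 6 for Herc2 (0.582). In sedentary hearts, replicate 7 was high for Coq8a (0.701, at 13.28) and low for the probe ILMN_1351387 (0.590, at 12.96). That probe, which has no symbol, was higher in early exercise hearts at a fold of 1.28.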

How the results depend on the processing

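The 0 probes past an adjusted p of 0.05 became 28 with chip as a block, 8 if no background was corrected, 2 at a common median of all arrays, 1 with the length score as a covariate, and 0 to 23 with each array left out (2 without sedentary replicate 1, 23 without sedentary replicate 2). Replicate numbers did not pair the rats: correlations of same-numbered deviations ran from -0.335 to 0.397 and 1 of 7 was highest with its own number, and with the replicate block 4 probes passed. The 198 probes past the study's thresholds became 63 without background correction and 394 with the length score. The 146 higher ones became 52 without background correction and 18 at a common median, and the 52 lower ones 11 without background correction, 229 at a common median, 29 with brightness and 209 with the length score, so the balance of higher and lower depends on the scaling. The 334 probes for the difference between ages became 641 at a common median, 714 with no detection filter and 563 with chip as a block. The dimmer early exercise signal (-183) was -377 on chip 1, 40.6 on chip 2 and -20.2 as a median (exact permutation p = 0.158). The third Actb probe (0.000248) turned to -0.0101 with chip as a block, -0.0225 with brightness and -0.0377 to 0.0367 with an array left out. With the length score these turned: ILMN_1366973 (-0.0554), ILMN_1361751 (-0.0024), S100a6 (-0.0550), Eif4ebp1 (-0.0244), Arpc3 (-0.11), Naa38 (-0.10), Flnc (0.0520), Idh2 (0.000616) and Per1 (0.15). The medians of the very long transcripts and ribosomal genes went to 0.00 and -0.01 with it, as the score is made from these lists. Those of the ion channels and of the ubiquitin and erythroid lists went to 0.00, 0.0040 and -0.0066, and the cause was not tested. With chip in the model, 13 probes passed at a common median (0 higher), 106 without background correction and 1 with brightness. Without early exercise replicates 1, 2, 3, 5 and 7 that count was 22, 31, 11, 18 and 67, and without sedentary replicates 1 and 3 it was 8 and 73. Of the other recomputed values, 3244 of single probes kept their direction and their side of the threshold and 62 came past it, and 1024 list or span medians moved by less than the spread between rats and 41 by more. The classes of protein length were not run.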
